A study of Mus musculus with 5 samples.

Results

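The comparison set the H2AK119Ub peaks of progenitors transduced with PML-RARa against those of progenitors transduced with MLL-AF9. All rows of both deposited peak lists were taken, which gave 1772 peaks for PML-RARa and 1408 for MLL-AF9, together 3180 of the 5132 peaks in the 4 lists of the series. H2AK119Ub is ubiquitin on a lysine of histone H2A, and the peaks came from chromatin immunoprecipitation followed by sequencing (ChIP-seq). The cells were lineage-negative (Lin-) haematopoietic progenitors from the bone marrow of C57BL/6 mice, grown in liquid culture after infection. Both groups carried the same genotype, R26CreERT2;Ring1a-/-;Ring1bf/f;Cdkn2a-/-, as did the non-transduced and HOXA9 cells used for context. Every group was therefore labelled as null for Ring1a and for the tumour suppressor gene Cdkn2a. The labels do not state whether the floxed Ring1b allele had been deleted with the inducible Cre. Each group had 1 library, so every difference is one between 2 libraries and none could be tested. A library of cells given a vector without an oncogene was not analysed here. Changes in the mark within cells and changes in the mixture of cells in a culture cannot be told apart in such bulk chromatin.

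The mark is laid down by Polycomb repressive complex 1 (PRC1) through the ubiquitin ligases RING1A and RING1B, and it is typical of broad domains over silent developmental genes. PML-RARa, the fusion protein of acute promyelocytic leukaemia, joins PML to the retinoic acid receptor RARA and acts mainly as a repressor at retinoid-controlled sites. MLL-AF9, a fusion of acute myeloid leukaemia, joins the chromatin-binding part of the histone methyltransferase MLL to the elongation factor AF9, and is known for activating HOXA genes and Meis1. MEIS1 is a homeodomain cofactor of HOXA9, and both are regulators of progenitor self-renewal.

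Listed peaks at the HoxA cluster and at Meis1 differed between the lists, described below, and a part of the fusion proteins in this was not tested. The promoters of 3 genes of these loci are printed as examples of their sequence. PRC1 is recruited in part through unmethylated CpG-rich DNA, and the capitals mark each CG dinucleotide, which reads the same on both strands. The sequences are the 250 bases before the start of each gene, 5′ to 3′ on the gene's strand, from RefSeq on GRCm38.p6. They were found by gene symbol and were not placed on the mm9 positions of the peaks.
Meis1: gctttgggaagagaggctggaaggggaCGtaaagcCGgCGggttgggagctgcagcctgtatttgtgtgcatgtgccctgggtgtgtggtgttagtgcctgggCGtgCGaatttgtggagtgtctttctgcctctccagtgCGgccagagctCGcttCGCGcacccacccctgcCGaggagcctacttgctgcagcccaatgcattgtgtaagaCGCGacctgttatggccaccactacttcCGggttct
Hoxa9: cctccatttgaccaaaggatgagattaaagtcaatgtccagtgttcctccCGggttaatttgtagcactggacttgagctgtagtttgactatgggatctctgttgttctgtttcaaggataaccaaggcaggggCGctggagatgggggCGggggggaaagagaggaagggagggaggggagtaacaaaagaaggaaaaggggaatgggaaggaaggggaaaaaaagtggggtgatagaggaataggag
Hoxa13: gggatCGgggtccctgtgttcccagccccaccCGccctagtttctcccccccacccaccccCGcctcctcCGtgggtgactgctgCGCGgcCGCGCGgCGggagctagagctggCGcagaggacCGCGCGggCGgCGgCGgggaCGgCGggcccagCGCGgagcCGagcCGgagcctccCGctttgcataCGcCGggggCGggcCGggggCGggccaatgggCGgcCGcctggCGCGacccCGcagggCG
The Meis1 window holds 13 CG dinucleotides, a number reached by 31.5% of the 32851 RefSeq promoter windows of this length, whose median is 6. The Hoxa9 window holds 3, reached by 71.0%. The Hoxa13 window holds 35, reached by 2.97%.

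Both lists held broad domains, and the PML-RARa list was the longer of the pair in number and in length. PML-RARa peaks covered 35.7 Mb with a median width of 16.0 kb (quartiles 9.79 and 25.6 kb). MLL-AF9 peaks covered 27.0 Mb with a median width of 14.6 kb (quartiles 9.29 and 23.9 kb). The covered length of PML-RARa was thus 1.32 times that of MLL-AF9, on mean widths of 20.1 and 19.2 kb. Domains over 50 kb numbered 86 in PML-RARa and 67 in MLL-AF9, and peaks under 5 kb numbered 126 and 76. The lists give no read counts, so the depth of both libraries is unknown and its part in these numbers was not tested.

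About as many PML-RARa peaks had a partner in the other list as had none, while most MLL-AF9 peaks had one. Peaks were matched when they shared at least 1 bp. A partner was found for 901 of the 1772 PML-RARa peaks, a share of 50.8% (exact Clopper-Pearson 95% interval 48.5 to 53.2). For MLL-AF9 it was found for 909 of 1408 peaks, a share of 64.6% (interval 62.0 to 67.1). That left 871 PML-RARa peaks and 499 MLL-AF9 peaks without a partner. The intervals take each peak as an independent count, so they hold counting error and nothing else. By length, 16.4 Mb lay under peaks of both lists. This was 45.8% of the PML-RARa length, 60.6% of the MLL-AF9 length and 35.3% of the length covered by either.

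With equal list lengths the shares of the lists came close together, which is largely arithmetic. Most matches were one-to-one (711 pairs), so lists of equal length give nearly equal shares. In the full lists the matched counts, 901 and 909, were also nearly equal, and their shares differed mainly through list length. The best 1408 PML-RARa peaks by the authors' score were set against the whole MLL-AF9 list, with tied scores at the cut of 839 ordered by width. Of these, 783 PML-RARa peaks (55.6%, interval 53.0 to 58.2) and 799 MLL-AF9 peaks (56.7%, interval 54.1 to 59.4) had a partner. The 364 PML-RARa peaks below the cut had scores of 700 to 839 and a median width of 12.7 kb. Among them 118 (32.4%, interval 27.6 to 37.5) overlapped an MLL-AF9 peak. The best 1408 PML-RARa peaks still covered more, 30.3 Mb against 27.0 Mb. Among the best 620 of each list the shares were 45.2% and 45.6%.

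Matched peaks were wider and had higher scores than unmatched ones in both lists. Matched PML-RARa peaks had a median width of 19.6 kb and a median score of 1093, and unmatched ones 13.1 kb and 928. Matched MLL-AF9 peaks had a median width of 16.1 kb and a median score of 1008, and unmatched ones 12.3 kb and 890. Scores are the authors' values and are read here only within their own list. A wider peak also has more room to meet a partner, and the part of width in the matching was not tested.

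The share of peaks with a partner rose with width from 18.3% (interval 11.9 to 26.1) of the 126 PML-RARa peaks under 5 kb to 80.2% (interval 70.2 to 88.0) of the 86 over 50 kb. In MLL-AF9 the ends of the range were 46.1% (interval 34.5 to 57.9) of 76 narrow peaks and 85.1% (interval 74.3 to 92.6) of 67 wide ones. In these full lists the shares thus stood far apart among narrow peaks, while their intervals overlapped among the widest. The MLL-AF9 peaks were matched against the longer list, and the part of list length in this contrast was not tested. By score, 74.3% of the 443 highest-scoring PML-RARa peaks were matched and 34.5% of the 443 lowest-scoring. Among the 352 highest-scoring and the 352 lowest-scoring MLL-AF9 peaks the shares were 83.5% and 45.7%.

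**Figure D1:**
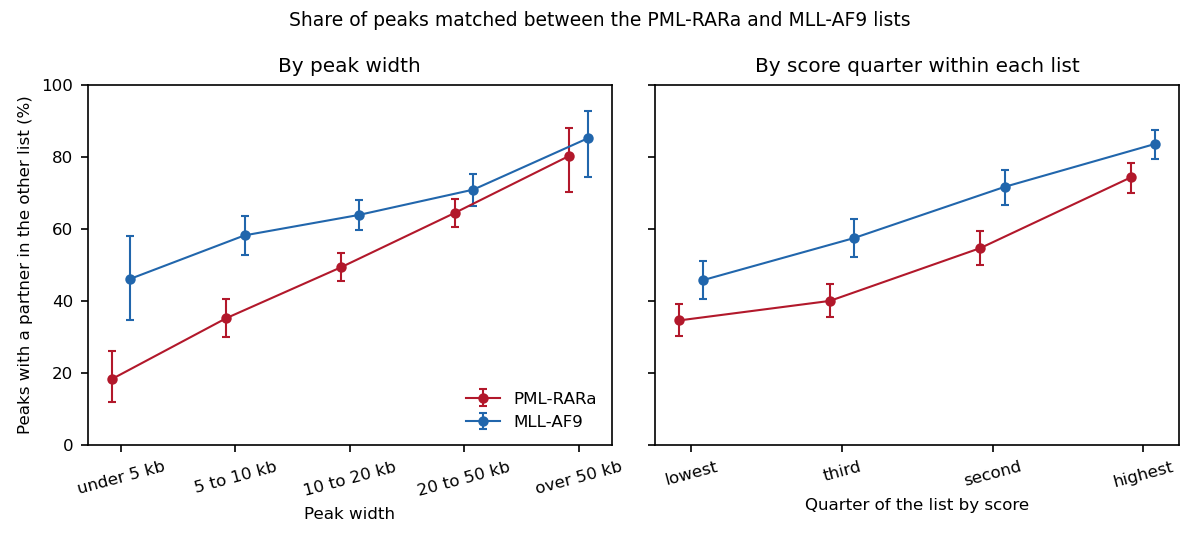
Share of peaks (%, vertical axis) of each list with a partner in the other list, by peak width (left) and by score in 4 classes of equal size (right); points are shares of peaks in 1 library and bars are exact 95% binomial intervals. The shares rise from 18.3% to 80.2% with width in PML-RARa and from 46.1% to 85.1% in MLL-AF9.

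Where 1 peak of each list lay in the same place, the PML-RARa peak tended to be the wider. There were 808 such one-to-one pairs, whose median width was 19.0 kb for PML-RARa and 15.4 kb for MLL-AF9. The median ratio of PML-RARa to MLL-AF9 width was 1.12 (exact order-statistic 95% interval over pairs 1.09 to 1.15). The PML-RARa peak was wider in 527 pairs and the MLL-AF9 peak in 281. A PML-RARa peak at least 1.5 times as wide was found in 220 pairs (27.2%), and an MLL-AF9 peak at least 1.5 times as wide in 80 (9.9%). The other 508 pairs lay between these bounds. In pairs whose geometric mean width was 10 to 20 kb the median ratio was 1.16 (interval 1.10 to 1.22, n = 350). It was 1.06 (interval 0.774 to 1.21, n = 18) under 5 kb and 1.13 (interval 1.08 to 1.34, n = 130) at 5 to 10 kb. At 20 to 50 kb it was 1.09 (interval 1.04 to 1.14, n = 272), and over 50 kb 1.08 (interval 0.974 to 1.30, n = 38). The intervals take pairs of the same 2 libraries as independent, so they are no test of a difference in width.

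More often the MLL-AF9 peak of a pair lay inside the PML-RARa peak than the reverse. It was wholly inside in 343 pairs, the PML-RARa peak was wholly inside in 125, and the pair was staggered in 340. In the median pair 99.1% of the MLL-AF9 peak and 83.7% of the PML-RARa peak were shared. The median PML-RARa peak reached 364 bp further on the left and 270 bp further on the right. At least 1 end lay within 100 bp in both lists in 168 pairs (20.8%), and both ends did in 7. Across the 808 pairs the widths had a Spearman rho of 0.69 and the scores one of 0.26. Both rhos describe pairs of the same 2 libraries, and pairs are not independent replicates.

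**Figure D2:**
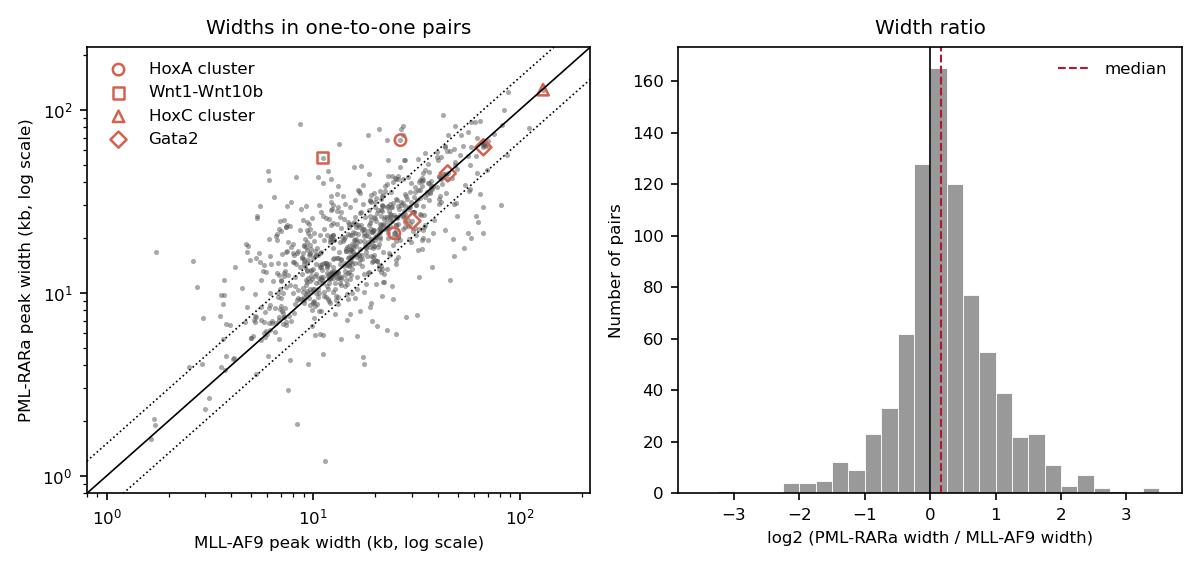
Left, width of the PML-RARa peak (kb, log scale) against that of the MLL-AF9 peak (kb, log scale) in 808 one-to-one pairs, 1 point per pair, with equality as a solid line, 1.5 times as dotted lines and overlapping peaks at 4 loci ringed. Right, number of pairs by log2 width ratio, with the median ratio of 1.12 dashed; 527 pairs lie to the right of 0.

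Splitting of a domain in one list into several peaks of the other was rare and occurred in both directions. A PML-RARa peak lay over more than 1 MLL-AF9 peak in 38 cases, and an MLL-AF9 peak over more than 1 PML-RARa peak in 31. The widest PML-RARa peak over 3 MLL-AF9 peaks was 139 kb long, on chromosome 8 at 114223107 to 114362539. The PML-RARa peak with the second highest score of its list (2725), on chromosome 7 at 19635251 to 19704174, also lay over 3. In the other direction, MLL-AF9 peaks of 83.4 kb on chromosome 11 at 118810235 to 118893616 and 76.9 kb on chromosome 4 at 140518556 to 140595500 each lay over 3 PML-RARa peaks.

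Peaks found in only 1 of the lists were mostly missing from the non-transduced list too. A non-transduced peak overlapped 234 of the 871 unmatched PML-RARa peaks (26.9%, interval 23.9 to 29.9) and 145 of the 499 unmatched MLL-AF9 peaks (29.1%, interval 25.1 to 33.3). Among matched peaks the shares were 68.8% in PML-RARa and 68.5% in MLL-AF9. A HOXA9 peak, from a list of 620, overlapped 11.9% of the unmatched PML-RARa peaks and 12.0% of the unmatched MLL-AF9 peaks. For matched peaks the HOXA9 shares were 43.6% and 43.8%. Neither of these further lists had a peak at 580 unmatched PML-RARa peaks (66.6%) and 324 unmatched MLL-AF9 peaks (64.9%). The share of matched peaks found in neither was 23.0% in both PML-RARa and MLL-AF9. Both sides were read against the same non-transduced and HOXA9 libraries, so their shares are not independent.

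Absence from a list is not absence of the mark. Both lists skip numbers in their peak names, 352 in PML-RARa and 402 in MLL-AF9, and no listed score was below 700 or 703. The numbers ran in order along each chromosome, so, if they are the numbers given at peak calling, a call left out of a list lies where a number is skipped. No MLL-AF9 number was skipped around 429 of the 871 unmatched PML-RARa peaks (49.3%). No PML-RARa number was skipped around 264 of the 499 unmatched MLL-AF9 peaks (52.9%). At these positions the other list had no numbered call at all. The median distance from an unmatched peak to the other list was 200 kb for PML-RARa and 153 kb for MLL-AF9. Within 10 kb of a peak of the other list were 62 unmatched PML-RARa peaks (7.12%) and 32 unmatched MLL-AF9 peaks (6.41%). Within 100 kb were 304 (34.9%) and 208 (41.7%). The distances were not set against those of randomly placed peaks.

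For named loci, 14 windows were laid on mm9 from general knowledge of the mouse map, since an mm9 annotation was not used here. Peaks are therefore described by locus and by their deposited ends, and not by promoter or exon. A listed peak was present in both lists at 10 loci, in PML-RARa alone at 3 and in MLL-AF9 alone at 1. The listed length was greater in PML-RARa at 10 loci and in MLL-AF9 at 4. Over the whole lists the PML-RARa peak was the wider in 65.2% of the 808 one-to-one pairs. No partner was found for 49.2% of all PML-RARa peaks and 35.4% of all MLL-AF9 peaks. The loci were chosen with earlier results of these data known, so these counts describe the chosen loci only.

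The HoxA cluster, whose homeobox genes set segment identity in the embryo and keep progenitors immature in blood, had a much shorter domain in MLL-AF9. In PML-RARa a peak of 68.2 kb (score 1880) ran on chromosome 6 from 52142117 to 52210269. In MLL-AF9 the peak was 26.4 kb long (score 1359) and ran from 52183835 to 52210275. The right ends lay 6 bp apart and the left ends 41.7 kb, a width ratio of 2.58. No MLL-AF9 number was skipped over the 1037 kb before its peak, so no numbered call of that library lay on the stretch listed in PML-RARa alone. The peak was 68.3 kb in non-transduced cells and 64.5 kb in HOXA9 cells.

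Beyond the HoxA peak, PML-RARa resumed after a gap of 0.940 kb and MLL-AF9 after one of 0.985 kb. The next peaks began 51 bp apart, with a PML-RARa width of 21.1 kb and an MLL-AF9 width of 24.7 kb. The last MLL-AF9 peak of the window (29.1 kb, score 1628) overlapped PML-RARa peaks of 14.6 kb and 25.5 kb, and its right end was 195 bp from that of the latter. Over the whole window PML-RARa listed 129 kb and MLL-AF9 80.2 kb, of which 75.2 kb were shared.

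At HoxC and HoxD the main domains had nearly the same extent in both lists, and at HoxB the peaks differed in both directions. At HoxC the peaks nearly coincided, with 129 kb in PML-RARa (chromosome 15 at 102745718 to 102874297) and 130 kb in MLL-AF9 (102745099 to 102874819). At HoxD the main peaks were 65.5 kb and 64.2 kb long and began 81 bp apart on chromosome 2, at 74491905 and 74491986. An MLL-AF9 peak of 37.6 kb (score 844) continued that domain to 74594785, where PML-RARa listed none past 74557368. On the other side a PML-RARa peak of 10.3 kb (score 751) at 74480556 to 74490867 had no partner in MLL-AF9. Non-transduced cells listed a peak with nearly the same ends, 74480394 to 74490862. They also listed one of 11.7 kb at 74580900 to 74592616, inside the further MLL-AF9 peak. HOXA9 cells listed 1 peak in the window, of 65.3 kb. Over the HoxD window PML-RARa listed 75.8 kb and MLL-AF9 102 kb. At HoxB, on chromosome 11, the longest peaks began 212 bp apart and the PML-RARa peak reached 27.9 kb further, with 85.7 kb against 58.0 kb. The last HoxB peaks went the other way, with 11.2 kb for PML-RARa and 20.2 kb for MLL-AF9, and a further MLL-AF9 peak of 19.1 kb had no partner. Over the HoxB window PML-RARa listed 144 kb and MLL-AF9 132 kb.

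Meis1 was marked in the PML-RARa list and not in the MLL-AF9 list. A PML-RARa peak of 13.7 kb lay on chromosome 11 at 18769242 to 18782980 and had the 35th highest score of its list (1845). A further one of 23.2 kb lay at 18906186 to 18929349 (score 1060). The peaks were 123 kb apart, and the Meis1 gene is 139 kb long in RefSeq on GRCm38.p6. MLL-AF9 listed no peak in a stretch of 16924 kb around the locus, in which 2 of its numbers were skipped, so an unlisted call there is possible. Non-transduced cells listed none, and HOXA9 cells listed a peak of 3.69 kb.

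Mecom, which encodes the stem cell transcription factor EVI1, had the same pattern, with a PML-RARa peak of 13.7 kb on chromosome 3 at 30402473 to 30416211 (score 928) and no MLL-AF9 peak. MLL-AF9 skipped 2 numbers in the 30111 kb without a listed peak around it. Non-transduced cells also listed none there, and HOXA9 cells listed one of 16.2 kb. Prdm16, a stem cell regulator of the same gene family, had the opposite pattern. Its MLL-AF9 peak of 13.1 kb lay on chromosome 4 at 154005256 to 154018346 (score 994), and PML-RARa had no listed peak and no skipped number in the 747 kb around it. Non-transduced cells listed a peak of 22.4 kb in the Prdm16 window.

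At Gata2, a zinc finger factor of stem and progenitor cells, both lists held 3 peaks in nearly the same places on chromosome 6. The PML-RARa widths were 62.3, 24.6 and 44.9 kb, and the MLL-AF9 widths 66.7, 30.2 and 44.8 kb. The middle peaks ended 141 bp apart, at 88160492 and 88160633. Non-transduced cells listed no peak in this window and HOXA9 cells 1. Gata2 thus differed from Meis1 and Mecom in being listed in both fusion libraries.

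The Cdkn2a-Cdkn2b window held a PML-RARa peak of 9.98 kb on chromosome 4 at 88933545 to 88943525 (score 839) and none in any of the other lists. This locus encodes the cell cycle inhibitors p16INK4A, p19ARF and p15INK4B. The cells are labelled Cdkn2a-/-, and the extent of that deletion is not given in the sources used here. MLL-AF9 skipped 2 numbers in the 43055 kb without a listed peak around this window.

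**Figure D3:**
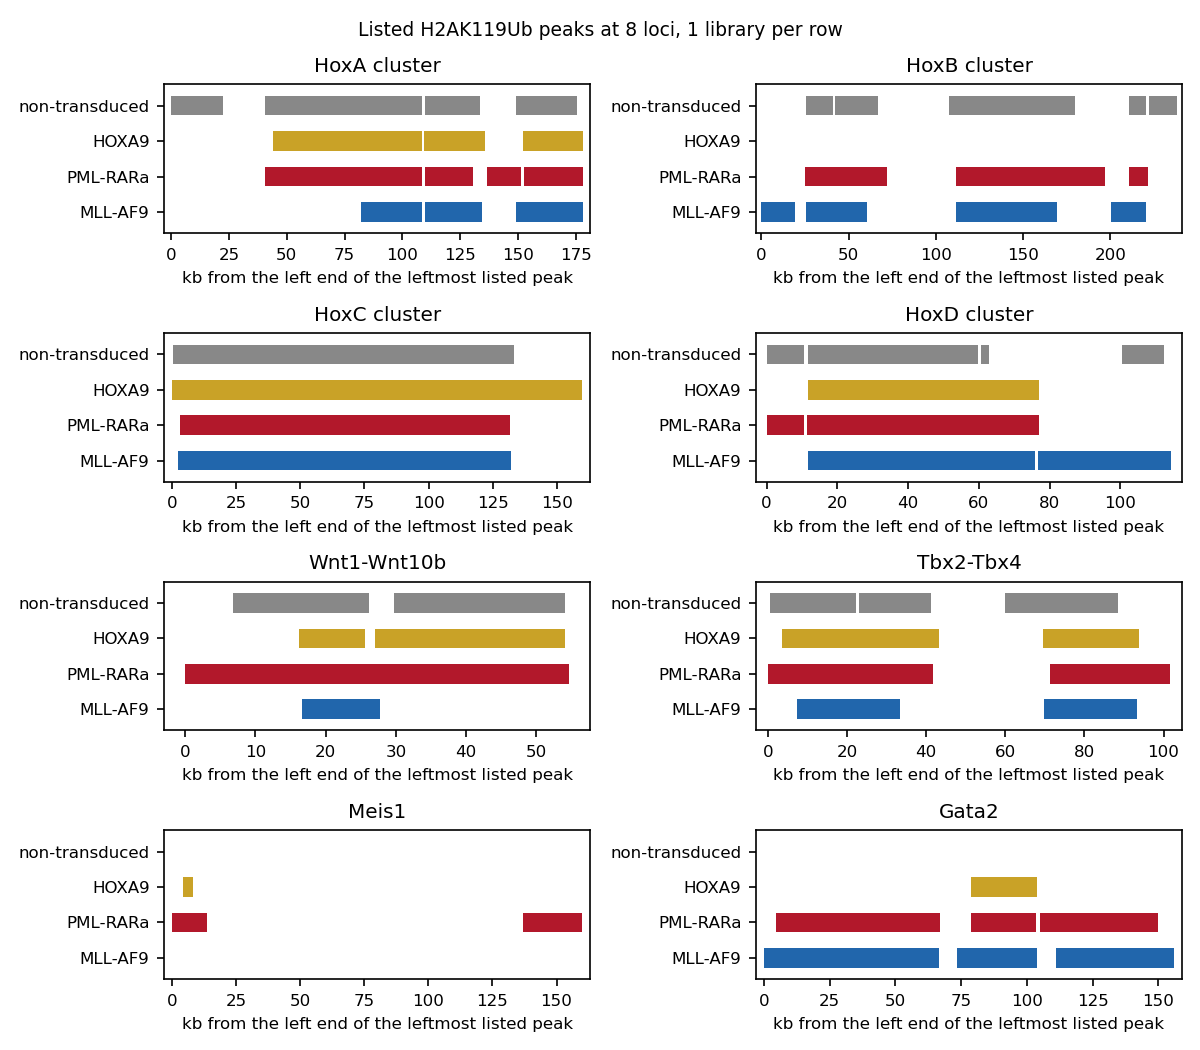
Listed peaks (bars, to scale) at 8 loci in the 4 lists, 1 library per row; the horizontal axis is the distance in kb from the left end of the leftmost listed peak. At the HoxA cluster the MLL-AF9 peak of 26.4 kb ends with the PML-RARa peak of 68.2 kb, and at Meis1 peaks are drawn for PML-RARa and HOXA9 alone.

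The Wnt1-Wnt10b, Tbx2-Tbx4, Tlx1-Lbx1 and Foxq1-Foxf2-Foxc1 loci were marked in both lists, and in each overlapping pair of these loci the PML-RARa peak was the wider. The same held for 65.2% of all 808 one-to-one pairs, whose median ratio was 1.12. At HoxA, HoxB, HoxC and Gata2 some overlapping peaks went the other way. At Wnt1-Wnt10b, which encode secreted signalling proteins, a PML-RARa peak of 54.7 kb on chromosome 15 at 98587466 to 98642154 faced an MLL-AF9 peak of 11.1 kb at 98604140 to 98615251. The width ratio of 4.92 was the largest among overlapping peaks of the 14 loci, and 1 MLL-AF9 number was skipped on the right of its peak. In the same window non-transduced cells listed 43.7 kb and HOXA9 cells 36.5 kb, each in 2 peaks. At Tbx2-Tbx4, genes of T-box transcription factors, the first peaks were 41.8 kb and 25.8 kb and the second 30.5 kb and 23.5 kb. At the homeobox genes Tlx1 and Lbx1 the PML-RARa peaks of 45.8 kb and 56.8 kb faced MLL-AF9 peaks of 36.5 kb and 51.6 kb. A further PML-RARa peak there, of 16.7 kb at 45366455 to 45383201 on chromosome 19 (score 1957), had no partner in MLL-AF9. Both the non-transduced and the HOXA9 list had a peak that overlapped it. At the forkhead genes Foxq1, Foxf2 and Foxc1 the pairs were close in width, at 21.3 against 19.3 kb and 22.0 against 19.5 kb.

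**Figure D4:**
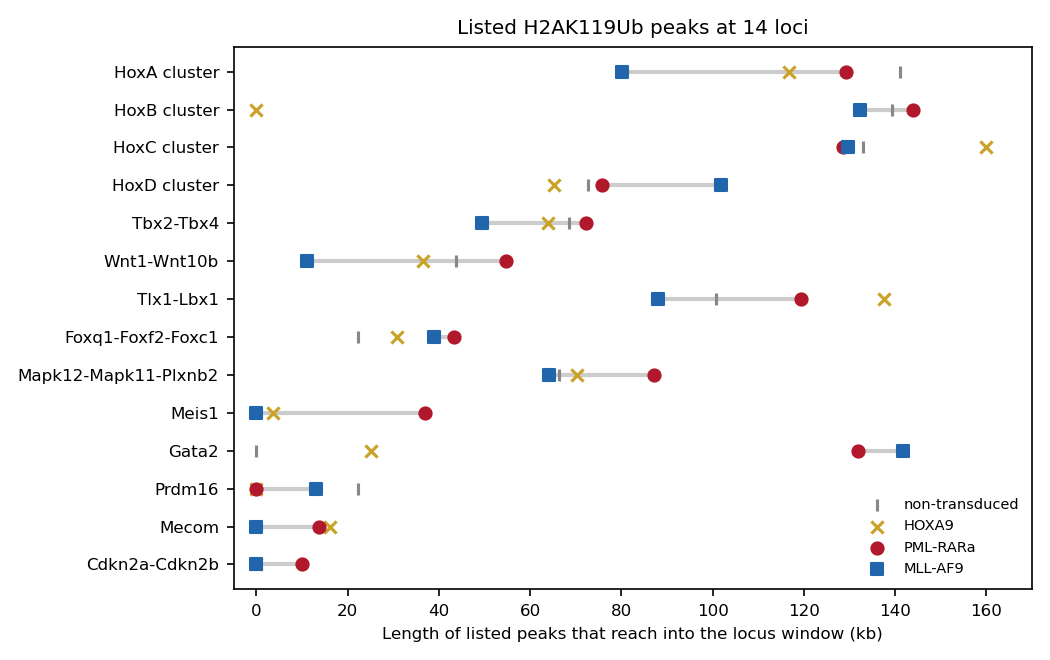
Length of listed peaks (kb, horizontal axis) that reach into the window of each of the 14 loci, 1 point per list and 1 library per list, with PML-RARa and MLL-AF9 joined by a line. The PML-RARa point is to the right at 10 loci, and the widest gaps are at the HoxA cluster (129 against 80.2 kb) and Wnt1-Wnt10b (54.7 against 11.1 kb).

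The pair with the best mean score rank lay at Mapk12-Mapk11-Plxnb2, genes of stress-activated kinases and a semaphorin receptor, on chromosome 15. Its PML-RARa peak of 87.1 kb (88954187 to 89041315) had the highest score of that list (2763), and its MLL-AF9 peak of 64.2 kb (88959376 to 89023546) a score of 1896. The next was a pair on chromosome 11 in which the MLL-AF9 peak was the wider, with 18.5 kb (74972797 to 74991265) against 12.8 kb (74975235 to 74988011). A pair on chromosome 14 followed, with a PML-RARa peak of 37.8 kb and an MLL-AF9 peak of 31.0 kb whose right ends, 121882126 and 121882160, nearly coincided. The fourth, on chromosome 11 at 4634354 to 4670792 in PML-RARa, was absent from the HOXA9 list and measured 36.4 kb against 32.0 kb. The fifth, on chromosome 15 at 99490568 to 99504437, measured 13.9 kb against 9.13 kb.

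Among pairs with a peak of at least 20 kb, the extreme width ratios ran to 9.66 in one direction and 0.236 in the other. On chromosome 11 a PML-RARa peak of 83.4 kb at 61312424 to 61395782 faced an MLL-AF9 peak of 8.63 kb. On the same chromosome a PML-RARa peak of 46.0 kb at 54014407 to 54060427 (score 1545) faced one of 6.00 kb, and neither of the further lists had a peak there. The third, on chromosome 9, measured 41.1 kb against 6.13 kb. The reverse was seen on chromosome 7, where an MLL-AF9 peak of 25.2 kb at 53102865 to 53128108 faced a PML-RARa peak of 5.95 kb. On chromosome 8 an MLL-AF9 peak of 31.8 kb at 124236562 to 124268390 faced one of 7.55 kb, and on chromosome 2 one of 46.0 kb at 31097307 to 31143309 faced 11.8 kb. These extremes were picked for their ratio and are given as a description.

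Some unmatched peaks stood near the top of their list. The best of PML-RARa was on chromosome 17 at 36364104 to 36372105 (score 2443), 116 kb from the nearest MLL-AF9 peak. It was in no other list, and no MLL-AF9 number was skipped around it. The second, on chromosome 12 at 113914314 to 113921772 (score 2144), and the third, on chromosome 19 at 54119046 to 54130029 (score 1975), were also in the non-transduced list. The third had no skipped MLL-AF9 number around it and no MLL-AF9 peak within 1688 kb. The fifth, a domain of 68.0 kb on chromosome 7 at 31851586 to 31919589 (score 1845), was listed in non-transduced and HOXA9 cells as well, and lay 8.30 kb from an MLL-AF9 peak. MLL-AF9 numbers were skipped around the second, the fifth and the fourth (the unpaired Tlx1-Lbx1 peak above), so an unlisted MLL-AF9 call is possible at these positions.

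In MLL-AF9 the best unmatched peak was 16.4 kb long on chromosome 4 at 135736083 to 135752501 (score 1937), in no other list and 21.5 kb from a PML-RARa peak. The second was on chromosome 15 at 74336666 to 74358364 (21.7 kb, score 1930). It overlapped no peak of another list and had no skipped PML-RARa number around it. A domain of 47.5 kb on chromosome 1 at 74809489 to 74856977 (score 1575) was listed in the non-transduced and HOXA9 libraries but not in PML-RARa. The widest MLL-AF9 peak, 131 kb on chromosome 5 at 125496784 to 125628069 (score 1537), had no overlap with PML-RARa but lay 0.840 kb from one of its peaks. The fifth, on chromosome 9 at 102607776 to 102637860, measured 30.1 kb (score 1528) and overlapped a non-transduced peak, with no skipped PML-RARa number around it. PML-RARa numbers were skipped around the peaks on chromosomes 4, 1 and 5, so an unlisted PML-RARa call is possible there. The widest PML-RARa peaks, of 174 kb on chromosome 6 at 89252610 to 89426491 and 139 kb on chromosome 8, were matched, and one of 154 kb on chromosome 18 was not.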

How the data were processed

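H2AK119Ub was measured by ChIP-seq in 1 library per group. Bowtie, MACS2 and the build mm9 are named in the submitters' processing notes. Their versions and settings, and whether the input served as control, are not stated in the labels; the input was not analysed here. The deposited files were peak lists called per library, with 5 columns and no header. The scale of the authors' deposited score is not stated, so scores were ranked or compared inside one list only. Other deposited columns, start and end, were taken as BED coordinates and are given 1-based. With no counts, depth is unknown.

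Peaks were matched from 1 bp of overlap; in a one-to-one pair neither peak touched a further peak of the opposite list. Shares carry exact Clopper-Pearson 95% intervals, and the median width ratio an exact order-statistic interval. With 1 library per group no test was possible. Regions were named by rule: the 5 best pairs by mean score rank, the 5 best unmatched peaks of each list, the 5 largest and 5 smallest width ratios among pairs with a peak of at least 20 kb (the first 3 of each are described), the 3 widest peaks and the 3 lying over most peaks of the other list (some are described), and 14 loci. The members and loci were chosen with earlier results of these data known. Planned gene lists and cell type markers need an mm9 annotation and were not run, so the labelled cell type was not checked. Overlap code was tested on simulated data, and all 500 shared peaks were found in 20 of 20 pairs of lists. The simulated shared peaks had the same start and could meet only their own partner. Staggered and split peaks were therefore not covered. The software was scipy 1.17.1, pandas 2.3.3, numpy 2.4.6 and matplotlib 3.10.9 on Python 3.11.15.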

Additional observations from a re-analysis of the deposited data

Results flagged for a closer look

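In 497 places where the PML-RARa, MLL-AF9 and non-transduced lists had 1 peak each, the median of the width ratios to the non-transduced peak was above 1 in PML-RARa and below 1 in MLL-AF9. Median widths were 19.9 kb (PML-RARa), 17.3 kb (MLL-AF9) and 20.1 kb (non-transduced), so the PML-RARa median itself was below the non-transduced one although its median ratio was above 1. The median width ratio to the non-transduced peak was 1.03 in PML-RARa (interval 1.00 to 1.05, wider in 271 of 497) and 0.952 in MLL-AF9 (interval 0.902 to 0.976, wider in 199 of 497). Both ratios share the non-transduced library, each side had 1 library, and the difference was not tested.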

How the results depend on the processing

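PML-RARa kept the wider peaks and the greater covered length in each alternative tried. The median width ratio ran from 1.07 (pairs overlapping by at least 50% of both peaks, below its interval) to 1.12, and the covered length ratio from 1.08 to 1.33. The shares with a partner moved by more than their intervals with shorter lists or a stricter overlap, for PML-RARa and MLL-AF9 in turn: 55.6% and 56.7% with as many best peaks as the MLL-AF9 list holds, 45.2% and 45.6% with as many as the HOXA9 list holds, 48.2% and 61.0% with the upper 75% by score, 43.7% and 55.8% with the upper 50%, and 42.3% and 60.5% when 50% of the peak or more had to be shared. One-to-one pairs fell to 371 with the upper 50% and to 269 at the HOXA9 list length, by construction of shorter lists. The other 25 of 38 values stayed within their interval or, where none was given, within 1.5 times the value reported. The latter bound is wide for the covered length ratio. That ratio counts as unmoved although it fell from 1.32 to 1.12 and 1.08 with lists cut to the MLL-AF9 and HOXA9 lengths. Merging peaks within 1000 bp and matching within 1000 bp moved no value beyond these bounds. No paired analysis was possible because each group had 1 library, and no library could be left out. The unknown depth limits every count of peaks.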

Other observations

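The ratio of PML-RARa to MLL-AF9 peak counts varied between chromosomes, with 1772 and 1408 peaks in the whole lists. On chromosome 13 the lists held 71 PML-RARa and 39 MLL-AF9 peaks (a ratio of 1.82), on chromosome 17 they held 91 and 54 (1.69), and on chromosome 10 they held 71 and 43 (1.65). On chromosome 9 the MLL-AF9 list was the longer, with 104 peaks against 102. PML-RARa peaks on chromosomes 10 and 13 had a partner in 36.6% and 39.4% of cases, against 50.8% in the whole list. Of the MLL-AF9 peaks on these chromosomes, 62.8% and 69.2% had one, against 64.6% in the whole list. The counts and shares above were picked for their size among 20 chromosomes. They were not tested, and neither was the part of counting scatter in them.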
